A study of Mus musculus with 12 samples.

Results

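The nuclear genes of mitochondrial complex I that carry the Nduf symbol were followed in liver ribosome profiling (Ribo-seq) of mice on a high-fat diet with and without lycopene. The members were taken by symbol alone: 47 of the 25029 usable genes of the Ribo-seq table begin with Nduf, of which 39 are structural subunits (Ndufa, Ndufb, Ndufc, Ndufs and Ndufv with a number, and Ndufab1) and 8 are assembly factors (Ndufaf1 to Ndufaf8). The livers came from male C57BL/6 mice that were 8 weeks old when the diets began and 16 weeks old after 8 weeks of feeding. The HFD group received a high-fat diet alone and the LYC group the same diet with lycopene, the red carotenoid of tomato, so both groups carried the fat load and no lean control was analysed here. The LYC group was taken from the sample titles and the series text, since the treatment entry of these samples names no lycopene. Each group had 3 Ribo-seq libraries and 3 libraries labelled mRNA. The labels describe equal amounts of material from the groups as pooled before library construction and do not say how many animals stand behind a library, so the p-values measure only the spread between these libraries.

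Complex I is the largest enzyme of the respiratory chain. It takes electrons from NADH in the matrix arm (the N module), hands them to ubiquinone (the Q module) and pumps protons through a membrane arm whose core is encoded by mitochondrial DNA. The accessory subunits surround and stabilise this core, while assembly factors help to build it and are absent from the finished enzyme. Ribo-seq sequences the stretches of mRNA covered by ribosomes, and the level of a gene was given as RPKM, the reads per 1000000 reads of the library divided by the gene's length in kilobases.

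3 properties of the libraries bear on every value below. Depth differed with the group, since the RPKM steps gave 834403 to 4405538 reads in the HFD libraries and 311045 to 412110 in the LYC libraries, so that 1 read on a gene of 1 kb was worth 0.227 to 1.20 RPKM in HFD and 2.43 to 3.21 RPKM in LYC. Small RNA genes took 3.67% ± 0.727 (SD, n = 3) of the reads in HFD and 12.1% ± 2.18 in LYC. Hepatocyte markers (8 genes such as Alb and Ttr) summed to 44423 to 47207 RPKM in HFD and 30219 to 38775 RPKM in LYC, a sum in which the most abundant genes weigh most (of the 8, 1 was called higher and 1 lower), whereas summed Kupffer cell markers (102 to 138 against 85.8 to 164) and stellate cell markers (79.0 to 149 against 80.3 to 109) overlapped between the groups. The 4 neutrophil markers summed to 0 to 1.45 RPKM in HFD and 10.8 to 26.7 in LYC, with Ngp and Camp at 0 in every library. Cholangiocyte markers summed to 14.6 to 23.9 RPKM in HFD and 2.89 to 9.25 in LYC, while endothelial and red blood cell markers overlapped. The part of these differences in the results was not tested, and in whole liver fewer cells of a type and less RNA per cell cannot be told apart.

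The libraries labelled mRNA could not serve as a separate readout. Over 2179 genes, each deviated from its group's mean together with exactly 1 Ribo-seq library (Pearson's r between 0.871 and 0.941), while all other pairs within a group gave r between -0.570 and -0.325. Within 3 libraries centred on their mean, a close match with 1 partner by itself makes the other pairs negative. The r alone cannot tell a second count from separate libraries of the same livers. Partners also held nearly equal reads of Ndufb10. LYC libraries of both kinds had 64, 57 and 47, and in HFD 119, 195 and 54 stood against 120, 198 and 54. Members with copies were divided otherwise, as given below. In HFD the partners carried different replicate numbers. Translation relative to mRNA was therefore not computed.

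The reads of several members could not be assigned to a single gene by sequence. Ndufb4 and Ndufb4c, copies of a membrane arm subunit, had coding sequences of 390 bases each with 0 differences in the RefSeq annotation of GRCm38.p6. The stretch from coding base 1 to 120 is shown because it is the same in both, so that no footprint inside it can tell them apart, and capitals mark the start codon.

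Ndufb4 and Ndufb4c: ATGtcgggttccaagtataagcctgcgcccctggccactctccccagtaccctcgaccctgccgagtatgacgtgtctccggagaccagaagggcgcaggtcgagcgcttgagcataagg

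The Ribo-seq table placed 173 HFD and 69 LYC reads on Ndufb4c, and 6 HFD and 0 LYC reads on Ndufb4. The table labelled mRNA divided the same sequence in another way, with 84 HFD and 22 LYC counts on Ndufb4 and 100 and 47 on Ndufb4c. Ndufb4b and Gm16056 also share windows with them, so the sum of both copies may miss reads of the sequence. This sum reached 22.4, 22.0 and 25.2 reads per 1000000 in HFD, and the LYC libraries lay higher at 55.8, 73.9 and 58.2, with no overlap. The GENCODE annotation calls Ndufb4c (chr15:73809507-73809896) a processed pseudogene and Ndufb4 (chr16:37647170-37654453) protein-coding, while RefSeq gives both a coding sequence. Of the 47 members, 3 (Ndufab1, Ndufb4 and Ndufb4c) shared every 28-base window of their coding sequence with the transcript of another gene and 17 shared none. Ndufs5 shared 82.3% of its windows, Ndufa12 78.3%, Ndufs3 69.8%, Ndufb2 49.1%, Ndufs6 48.1%, Ndufb11 44.1%, Ndufb3 39.9%, Ndufb9 34.1% and Ndufa11 30.9%, with predicted genes (Gm names) and named copies such as Ndufs5-ps, and their values are uncertain to that extent. How the alignment placed reads that fit several genes is not given in the sources used here.

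The promoters of members at both ends of the response are shown next, so that the letters before their start sites can be read beside the values. NRF1 and ETS factors are known regulators of nuclear respiratory chain genes. Each line gives the 120 bases before the RefSeq start site (GRCm38.p6), and capitals mark matches to the NRF1 core GCGCATGC or the ETS core CCGGAAG on either strand.

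Ndufb2, the largest increase among tested members, chr6:39592445-39592564, plus strand: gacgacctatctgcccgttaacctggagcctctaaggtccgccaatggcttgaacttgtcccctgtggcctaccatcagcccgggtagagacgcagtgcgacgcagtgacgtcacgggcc

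Ndufb10, a large increase with no shared window, chr17:24724424-24724543, minus strand: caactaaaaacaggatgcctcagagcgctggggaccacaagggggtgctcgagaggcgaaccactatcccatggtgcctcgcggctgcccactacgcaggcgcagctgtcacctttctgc

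Ndufa6, the lowest fold change among tested members, chr15:82354292-82354411, minus strand: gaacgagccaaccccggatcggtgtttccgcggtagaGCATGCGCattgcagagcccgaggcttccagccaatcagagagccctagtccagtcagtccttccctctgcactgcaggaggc

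Ndufa11, the next lowest among tested members, chr17:56717642-56717761, plus strand: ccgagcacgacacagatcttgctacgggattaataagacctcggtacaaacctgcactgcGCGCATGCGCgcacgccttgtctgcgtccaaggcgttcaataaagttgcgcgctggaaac

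Ndufaf1, the best covered assembly factor, chr2:119662835-119662954, minus strand: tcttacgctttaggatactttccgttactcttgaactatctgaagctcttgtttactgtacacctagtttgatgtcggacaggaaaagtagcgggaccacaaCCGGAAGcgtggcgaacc

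Promoter windows from 250 bases before to 50 bases after the start were given for 40 of the 47 members. The NRF1 core stood in 5 of the 40 (Ndufa6, Ndufa8, Ndufa11, Ndufaf4 and Ndufaf5), against 6.25% of the 4450 tested genes with an entry. Of these 5, Ndufaf4 and Ndufaf5 did not pass the low-count filter. Ndufa8 had a log2 fold change of 0.55. Ndufb11 (-0.15), Ndufa13 (-0.11) and Ndufb8 (-0.06), also below 0, had no NRF1 core. The promoters printed above were picked by fold change, and that of Ndufaf1 by coverage, so they do not stand for all members. Members with and without the core were not compared. The YY1 core AAGATGGC stood in 8 of 40 members against 5.96% of tested genes, the ETS core in 6 against 20.2%, the SP1 box GGGCGG in 21 against 70.1% and the TATA box TATAAA in 4 against 9.55%. Both strands were searched and matches could overlap. A match describes these letters and no binding was measured.

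Footprints on structural subunits took a larger share of the reads in LYC than in HFD. Of the reads outside small RNA genes they made up 0.266%, 0.256% and 0.252% in HFD, whereas LYC reached 0.385%, 0.480% and 0.339%, so that the groups did not overlap (0.258% ± 0.00725 against 0.401% ± 0.0715, SD, n = 3). HFD3, the HFD library nearest to the LYC libraries in depth, had the lowest of these shares. Its assembly factor share was the highest of the HFD libraries, and the part of depth was not tested. Assembly factors took 0.00738%, 0.00838% and 0.00843% in HFD and 0.0115%, 0.0159% and 0.00908% in LYC. These shares rested on 157, 317 and 53 reads in HFD and on 34, 39 and 28 in LYC. They did not overlap, but the gap between HFD3 and LYC3 is small for 53 and 28 reads. Ndufaf6 alone gave 13 of the 39 LYC2 reads. The balance between both classes differed by less than the spread between libraries: 36.1, 30.6 and 29.9 structural reads stood against each assembly factor read in HFD, and 33.4, 30.1 and 37.4 in LYC, with overlapping ranges. Subunits of complexes II to V also took a larger share in every LYC library (1.23% ± 0.227) than in any HFD library (0.845% ± 0.00995). With 3 libraries against 3, an exact two-sided permutation test cannot give a p below 0.1, so no test was run on these shares.

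**Figure D1:**
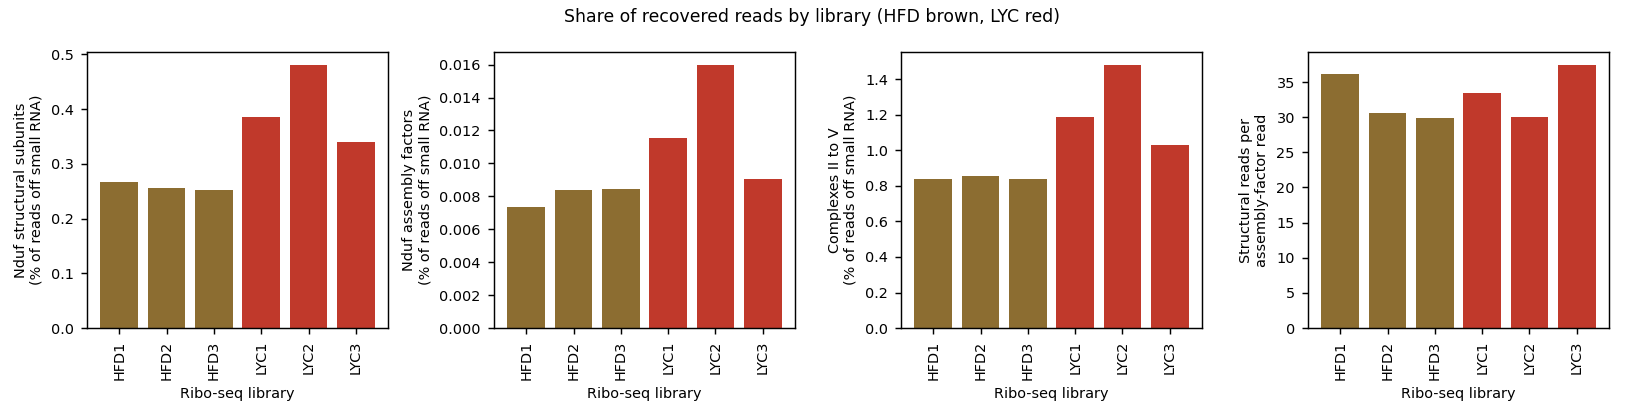
Share of reads outside small RNA genes on Nduf structural subunits, Nduf assembly factors and subunits of complexes II to V, and structural reads per assembly factor read, in each Ribo-seq library (brown HFD, red LYC). All LYC bars stand above the HFD bars in the first 3 panels, while the ratio in the last panel ranges from 29.9 to 36.1 in HFD and from 30.1 to 37.4 in LYC. The assembly factor bars of LYC rest on 28 to 39 reads each.

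The levels of the members spanned a wide range in both groups. Ndufa4, named as a complex I subunit but now placed in complex IV, was highest at 378, 350 and 231 RPKM in HFD and 541, 718 and 522 in LYC. Of the 36 other structural subunits that passed the low-count filter, HFD means ran from 15.1 RPKM (Ndufa11) through a median of 55.1 to 128 RPKM (Ndufb11). The extremes lay 8.50-fold apart. Counted per coding kilobase instead of per gene length, they ran from 19.2 (Ndufv3) to 231 (Ndufb11) reads per 1000000 and coding kb, 12.0-fold apart. Neighbours in the order of HFD means had overlapping library ranges at every step from Ndufb11 down to Ndufa11, so that adjacent ranks cannot be told apart. Only Ndufa4 above Ndufb11 and Ndufa11 above Ndufaf1 had HFD ranges that did not overlap, and in LYC every Ndufaf1 value lay above every Ndufa11 value. In HFD, the RPKM means of all 8 assembly factors lay below those of every structural subunit except Ndufb4 and Ndufa4l2, between 0.685 RPKM (Ndufaf5) and 10.9 RPKM (Ndufaf1). In LYC, the RPKM means of Ndufaf1 (20.8 RPKM), Ndufaf6 (16.7 RPKM) and Ndufaf8 (12.8 RPKM) lay above that of Ndufa11 (10.4 RPKM). These orders depend on the length used. Per coding kilobase, Ndufaf4 (22.6) lay above Ndufv3 (19.2) in HFD, and in LYC Ndufa11 (64.2) lay above Ndufaf1 (31.3), Ndufaf8 (28.1) and Ndufaf6.

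**Figure D2:**
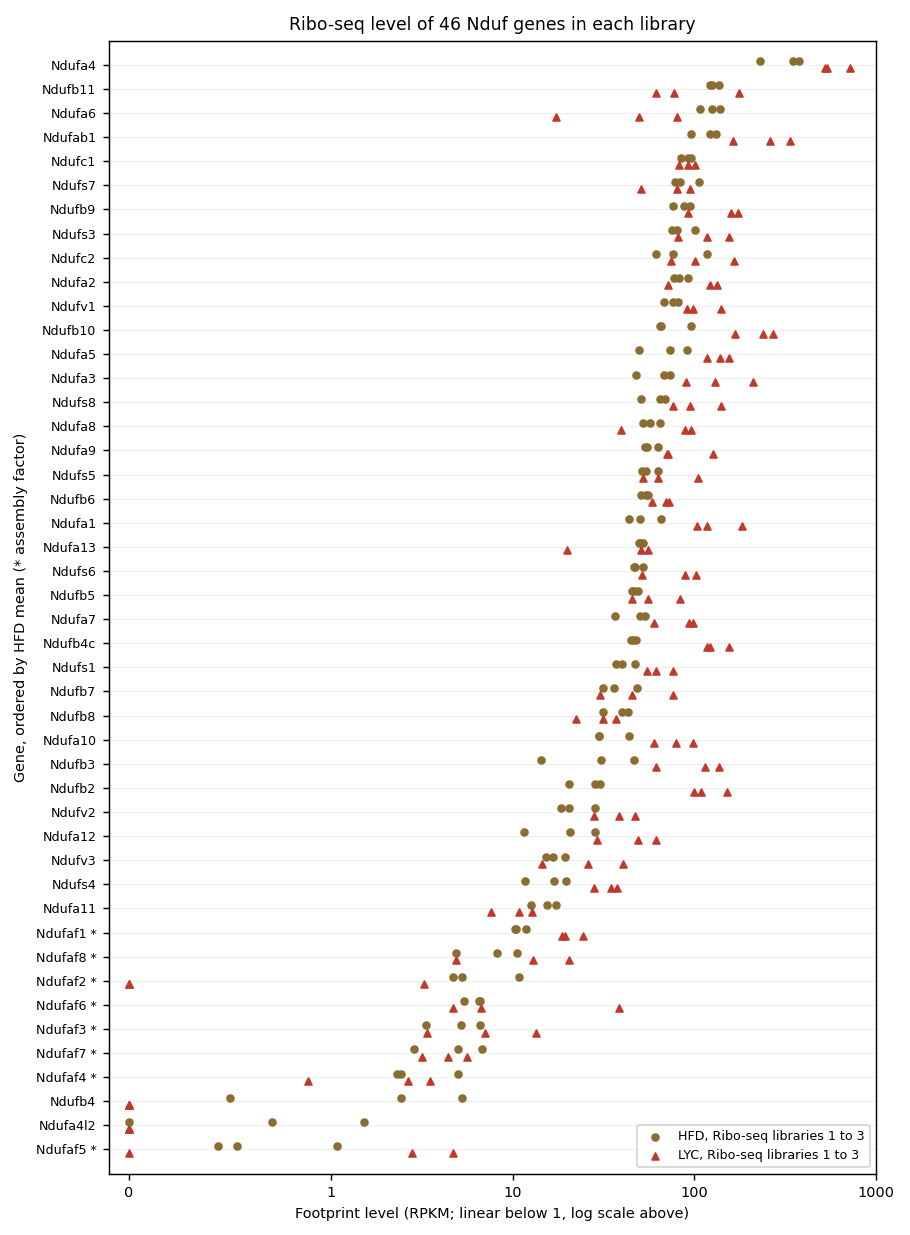
RPKM of 46 Nduf genes in the 3 HFD (brown circles) and 3 LYC (red triangles) Ribo-seq libraries, ordered by HFD mean, on an axis that is linear below 1 and logarithmic above. Ndufa4 stands apart at the top, and the 8 assembly factors (stars) gather at 11.8 RPKM or lower in HFD.

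Structural subunits moved mostly upwards in LYC, and no member was called lower. Of the 47 members, 38 passed the filter (37 structural subunits and Ndufaf1), and Ndufa4l2, Ndufb4 and the other 7 assembly factors did not. The call rule, a log2 fold change beyond 1 with an unadjusted limma p below 0.01, called 14 of the 37 structural subunits higher (37.8%) and 0 lower. Over all 5695 genes tested, 6.94% were called higher and 6.53% lower. The median log2 fold change (LYC minus HFD, on the log2(RPKM + 1) scale after TMM scaling) was 0.87 for the 37 subunits and -0.10 for all genes tested. In all, 31 of the 37 had a log2 fold change above 0, against 44.8% of all genes. At a limma adjusted p below 0.05, without a limit on the fold, 16 subunits were higher and 0 lower, against 6.51% and 5.34% of all genes. In 18 of the 37 subunits, all LYC libraries lay above all HFD libraries in RPKM, against 9.97% of tested genes, and in 1 (Ndufa6) all lay below, against 27.5%. Among the 20 tested subunits with under 5% of their windows shared, a limit set after the values were seen, 6 passed the call rule upwards and 0 downwards, with a median of 0.80. Members that passed the filter do not stand for all members, since a gene low in HFD could pass through LYC.

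**Figure D3:**
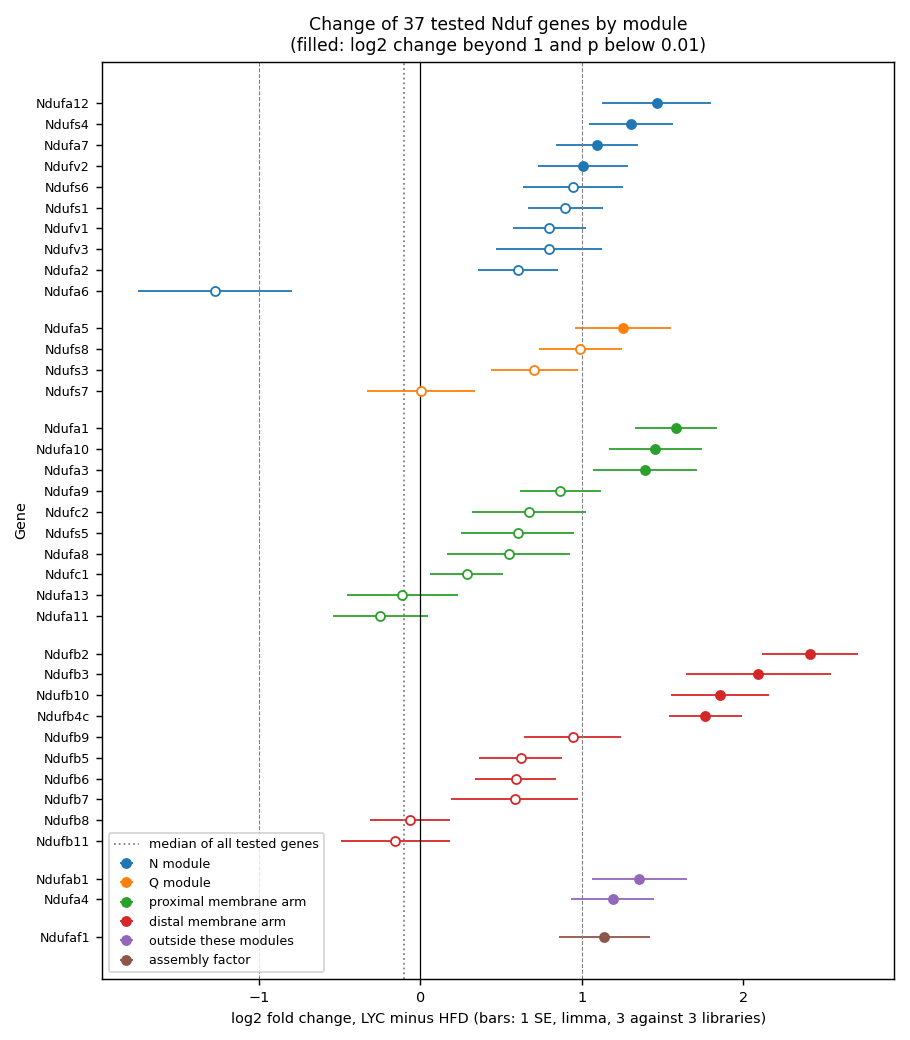
log2 fold change (LYC minus HFD) with 1 SE for 37 tested Nduf genes, 3 against 3 libraries, grouped by module, filled where called. Ndufb2 lies farthest right at 2.41 and Ndufa6 farthest left at -1.27, and the median of all tested genes is the dotted line at -0.10.

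The distal membrane arm, the end of the proton-pumping limb, held the 4 largest increases among the 38 tested members. Of its 10 tested members, 4 were called higher, against 6.94% of all tested genes. The N module had the same count, 4 of 10. Ndufb2 shared 49.1% of its coding windows with other genes, Ndufb3 39.9% and Ndufb4c all, so their values are uncertain to that extent. Ndufb2, a small membrane subunit, stood at 28.6, 30.3 and 20.5 RPKM in HFD and at 152, 99.6 and 109 RPKM in LYC. Every LYC value was more than 3 times every HFD value, and the log2 fold change was 2.41 ± 0.30 (SE, limma adjusted p = 0.0020). Ndufb3, another small membrane subunit, measured 46.5, 30.6 and 14.4 RPKM in HFD and 115, 137 and 61.5 RPKM in LYC. Its libraries did not overlap but its HFD values ranged widely, and its log2 fold change was 2.09 ± 0.45 (limma adjusted p = 0.021).

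Ndufb10, a disulfide-bonded subunit on the intermembrane side, rose from 64.6, 65.5 and 95.7 RPKM to 240, 271 and 169 RPKM. This was a log2 fold change of 1.86 ± 0.30 (limma adjusted p = 0.0075), in a gene whose coding windows are shared with no other gene. Ndufb4c, with the assignment described above, stood at 44.7, 45.8 and 47.8 RPKM in HFD and 117, 155 and 122 RPKM in LYC (1.76 ± 0.23, limma adjusted p = 0.0025). The rest of this arm was not called. Ndufb5, Ndufb6, Ndufb7 and Ndufb9 had log2 fold changes of 0.58 to 0.94, and Ndufb8 had -0.06. Ndufb11, with the highest RPKM of them in HFD at 125, 122 and 137 RPKM in HFD, spread over 61.8, 176 and 76.9 RPKM in LYC, on both sides of the HFD values (-0.15 ± 0.34, limma adjusted p = 0.80).

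The proximal membrane arm, next to the quinone site, had 3 of 10 tested members called higher, against 6.94% of all tested genes. Ndufa1, a short X-linked subunit, rose from 50.6, 65.4 and 43.8 RPKM to 118, 183 and 103 RPKM, a log2 fold change of 1.58 ± 0.25 (limma adjusted p = 0.0075). Ndufa10, which has the fold of a nucleoside kinase, rose from 30.0, 43.9 and 29.7 RPKM to 98.6, 79.8 and 60.2 RPKM (1.45 ± 0.29, limma adjusted p = 0.016). Ndufa3 rose from 73.2, 68.5 and 47.8 RPKM to 130, 211 and 89.9 RPKM (1.39 ± 0.32, limma adjusted p = 0.028). The libraries of these 3 genes did not overlap between the groups. Ndufa11 had the lowest HFD mean RPKM of the structural subunits tested, though not per coding kilobase, at 17.2, 15.4 and 12.6 RPKM in HFD and 7.62, 10.9 and 12.8 RPKM in LYC, and its groups touched (-0.25 ± 0.29, limma adjusted p = 0.60). The other 6 members, Ndufa8, Ndufa9, Ndufa13, Ndufc1, Ndufc2 and Ndufs5, ranged from -0.11 to 0.87 and were not called.

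In the N module, where NADH is oxidised, 4 of 10 members were called higher, against 6.94% of all tested genes. Ndufa12 rose from 20.8, 28.4 and 11.5 RPKM to 29.3, 61.8 and 49.0 RPKM (1.46 ± 0.34, limma adjusted p = 0.027), the lowest LYC value lying just above the highest HFD value. Ndufs4, whose loss in humans causes Leigh syndrome, rose from 17.0, 19.7 and 11.7 RPKM to 28.1, 37.7 and 34.8 RPKM (1.30 ± 0.26, limma adjusted p = 0.016). Ndufa7 rose from 36.7, 53.5 and 50.5 RPKM to 60.0, 93.1 and 99.0 RPKM (1.09 ± 0.25, limma adjusted p = 0.027).

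The catalytic members of this module are Ndufv1, Ndufv2 and Ndufs1. Ndufv2, an iron-sulfur subunit, was called at the edge of the rule with 18.4, 28.3 and 20.5 RPKM in HFD and 38.7, 47.1 and 28.2 RPKM in LYC. Its lowest LYC value fell inside the HFD range (1.01 ± 0.28, limma adjusted p = 0.049). Ndufs1, the largest subunit and carrier of iron-sulfur clusters, stood at 39.9, 47.2 and 36.9 RPKM in HFD and 61.8, 76.0 and 54.6 RPKM in LYC. It lay above HFD in every LYC library but under the fold limit (0.90 ± 0.23, limma adjusted p = 0.040). Ndufv1, which binds FMN and NADH, stood at 76.2, 81.9 and 67.8 RPKM against 91.4, 140 and 98.1 RPKM, again without overlap (0.80 ± 0.22, limma adjusted p = 0.053). Ndufa2, Ndufs6 and Ndufv3 ranged from 0.61 to 0.95 and were not called.

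Ndufa6, an N module subunit that binds the acyl carrier protein, was the only tested member with every LYC library below every HFD library. It measured 126, 138 and 107 RPKM in HFD and 49.8, 80.4 and 17.3 RPKM in LYC, on 583 and 29 reads. The log2 fold change was -1.27 ± 0.47, and the limma adjusted p of 0.12 did not pass. Without LYC2 the value became -1.66 and passed the call rule. LYC3 held 4 reads of this gene, and without LYC3 the value was -0.69.

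In the Q module, 1 of 5 members was called higher, where 6.94% of all tested genes were. Ndufa5 rose from 91.5, 73.2 and 49.4 RPKM to 139, 118 and 155 RPKM (1.25 ± 0.30, limma adjusted p = 0.029). Ndufs8, an iron-sulfur subunit, stood at 51.1, 65.0 and 68.8 RPKM in HFD and 76.5, 141 and 94.5 RPKM in LYC, without overlap and just short of the fold limit (0.99 ± 0.26, limma adjusted p = 0.039). Ndufs3 measured 75.4, 101 and 80.8 RPKM against 118, 156 and 81.8 RPKM, with overlap (0.71 ± 0.27, limma adjusted p = 0.12). Ndufs7, an iron-sulfur subunit next to the ubiquinone site, measured 83.2, 78.6 and 107 RPKM against 95.2, 80.5 and 50.6 RPKM, a log2 fold change of 0.0036 ± 0.33. The groups of Ndufs7 overlapped.

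Across the 7 core subunits of nuclear origin, 1 (Ndufv2) was called higher, 0 were called lower and the median log2 fold change was 0.80, where 6.94% and 6.53% of all tested genes were called. Among the 29 tested accessory subunits, counted without Ndufa4, 12 were called higher, 0 lower, and the median was 0.87. By module, the medians were 0.92 (N), 0.71 (Q), 0.64 (proximal membrane arm) and 0.78 (distal membrane arm), beside -0.10 over all genes tested. These medians are descriptions, and differences between them were not tested.

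2 members outside these modules were called as well. Ndufab1, the mitochondrial acyl carrier protein that serves complex I and fatty acid synthesis, rose from 122, 131 and 95.7 RPKM to 262, 338 and 163 RPKM. The groups did not overlap (1.36 ± 0.30, limma adjusted p = 0.022), but all of its windows are shared with other annotated genes, Ndufab1-ps among them. Ndufa4 had a log2 fold change of 1.19 ± 0.26 (limma adjusted p = 0.021) with no overlap at the levels given above. Its paralogue Ndufa4l2, known from hypoxia, was nearly silent, with 4, 3 and 0 reads in HFD and 0 in every LYC library. A count of 0 in LYC allows up to 2.68 reads per 1000000, more than the 0.879 reads per 1000000 of HFD, so a difference was not detectable at this depth. The same holds for Ndufb4 at 0.753 reads per 1000000 in HFD.

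Only Ndufaf1 among the assembly factors was deep enough for the test. It is a membrane arm factor and a partner of Ecsit and Acad9, and stood at 11.8, 10.3 and 10.4 RPKM in HFD and 18.7, 19.4 and 24.4 RPKM in LYC. Its libraries did not overlap (1.14 ± 0.28, limma adjusted p = 0.034). The increase rested on 129 HFD and 35 LYC reads, and the call was lost without HFD2 (log2 fold change 0.995) and without HFD3.

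The other assembly factors had 1 to 80 reads in a HFD library and 0 to 13 in a LYC library. Ndufaf2, which holds the place of Ndufa12 during assembly, measured 4.71, 5.25 and 10.8 RPKM in HFD and 3.26, 0 and 0 in LYC. Its 35 HFD reads against 1 LYC read gave an LYC to HFD ratio of 0.204 with an exact 95% interval of 0.00501 to 1.21 for counting error only. Ndufaf3 and Ndufaf4 act together on the early Q module. Ndufaf3 measured 6.63, 5.21 and 3.33 RPKM against 7.05, 13.4 and 3.37, and Ndufaf4 measured 2.42, 5.00 and 2.31 against 3.49, 0.885 and 2.67, both with overlap.

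Ndufaf5, an arginine hydroxylase acting on Ndufs7, measured 0.537, 1.08 and 0.439 RPKM in HFD and 2.78, 4.71 and 0 in LYC. Its partner Ndufaf8 measured 8.17, 10.6 and 4.85 RPKM against 20.5, 13.0 and 4.91. Ndufaf6 measured 5.42, 6.50 and 6.65 RPKM against 4.69, 38.6 and 6.73, so that its higher LYC mean came from LYC2 alone. Ndufaf7, an arginine methyltransferase, measured 2.87, 5.03 and 6.77 RPKM against 4.40, 5.58 and 3.16. Except for Ndufaf2, the groups of these 7 genes overlapped.

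Without the filter, all 47 members could be set side by side. The median change (log2) was then 0.80 over the 39 structural subunits and 0.72 over the 8 assembly factors, beside -0.19 for the 15749 genes above 0. The call rule gave 14 structural subunits and 1 assembly factor higher and 0 members lower, where it called 2.74% and 4.58% of these genes. The difference between both classes was not tested.

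Assembly factors of complex I without the Nduf symbol were covered in part. Of 12 in the table, 5 were tested and 1, Aifm1, a flavoprotein needed for mitochondrial import, was called higher, where 6.94% of all tested genes were. It rose from 41.9, 40.7 and 34.5 RPKM to 57.0, 75.1 and 73.1 RPKM (1.07, limma adjusted p = 0.021). Acad9 and Ecsit, which work with Ndufaf1, both had -0.24, Foxred1 had -0.18 and Tmem70 had -0.49 (limma adjusted p = 0.30 to 0.87 for these 4), and the median of the 5 was -0.24. A difference from the Nduf genes was not tested. Dmac1, Dmac2, Lyrm2, Nubpl, Timmdc1, Tmem126b and Tmem186 did not pass the filter. The mitochondrially encoded subunits mt-Nd1 to mt-Nd6 were not analysed here.

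The rest of the respiratory chain gave the closest comparison. Of 41 tested subunits of complexes II to V, 11 were called higher (26.8%) and 1 lower, against 6.94% and 6.53% of all genes tested, and their median change of 0.71 (log2) lay beside 0.83 for the 36 tested complex I subunits without Ndufa4, of which 13 were called higher. By complex, 1 of 4 tested subunits of complex II was called higher, 0 of 9 of complex III, 2 of 11 of complex IV and 8 of 17 of complex V, the ATP synthase. The only one called lower was Cyc1 of complex III (-1.03, limma adjusted p = 0.030). The difference between complex I and the other complexes was not tested.

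Gene length moved with the response. The 37 tested subunits had a median length of 760 nt against 3001 nt for all tested genes, and short genes as a class had higher fold changes. Outside small RNA genes, the median log2 fold change was 0.60 for the 116 tested genes under 600 nt, 0.31 for the 280 from 600 to 1000 nt, 0.07 for the 1158 from 1000 to 2000 nt and -0.12 for the 2079 from 2000 to 4000 nt. The structural subunits in the same length classes had medians of 1.19 (11 genes), 0.67 (13 genes), 0.93 (10 genes) and -0.06 (3 genes). The correlation of the fold change with log2 length was -0.21 among the 37, beside -0.32 over all 5695 tested genes. Both are Pearson's r across genes, which share libraries and are not independent.

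**Figure D4:**
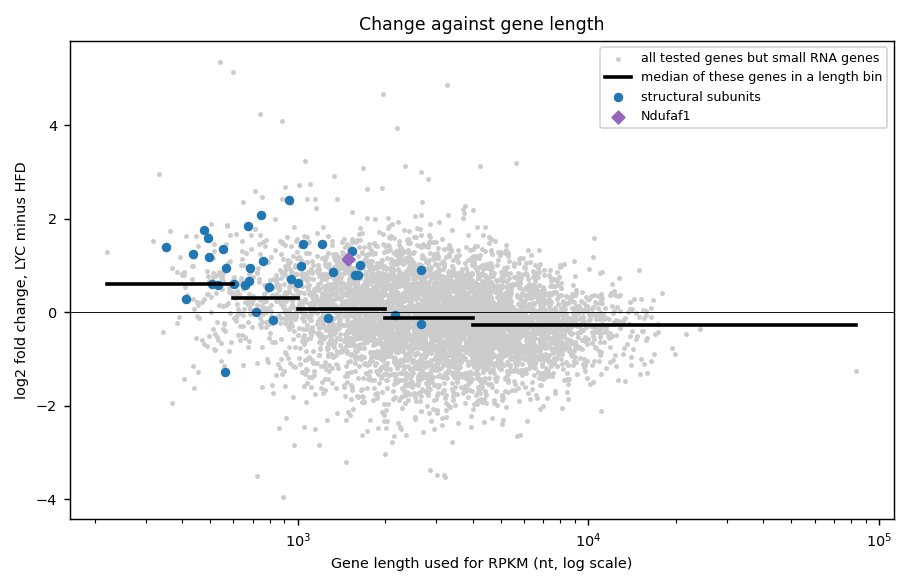
log2 fold change (LYC minus HFD) against the gene length used for RPKM (log scale) for all tested genes outside small RNA genes (grey), structural subunits (blue) and Ndufaf1 (purple), with the median of each length class as a black line. The black line falls from 0.60 under 600 nt to -0.26 above 4000 nt, and most blue points of 1000 to 2000 nt lie above it.

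With the trend of each library with gene length removed, 8 structural subunits remained called higher (21.6%), against 6.23% of all genes, and the median fell from 0.87 to 0.55, beside -0.05 for all genes. The 8 were Ndufb2 (2.12), Ndufb3 (1.72), Ndufb10 (1.45), Ndufa10 (1.24), Ndufa12 (1.21), Ndufb4c (1.19), Ndufs4 (1.15) and Ndufa1 (1.03). Ndufa3, Ndufa4, Ndufa5, Ndufa7, Ndufab1, Ndufaf1 and Ndufv2 were no longer called, with values from 0.55 to 0.98. Ndufa6 was then called lower at -1.75, where 5.9% of all genes were called lower. In complexes II to V, 4 subunits remained called higher (9.76%) and the median was 0.22. Scaling by total reads alone, which moved the median of all genes from -0.10 to -0.36, left 9 structural subunits called higher and 1 lower, against 4.13% and 11.5% of all genes, with a median of 0.59. At an unadjusted limma p below 0.001, 6 structural subunits were called higher and 0 lower, against 3.39% and 1.91% of all genes. edgeR's test on the recovered reads called 16 structural subunits and Ndufaf1 higher and 0 members lower, where it called 8.64% and 7.2% of all genes. 7 members (Ndufa1, Ndufa10, Ndufb2, Ndufb3, Ndufb4c, Ndufb10 and Ndufs4) were called higher in all 16 refits run: 10 other settings and 6 with a library left out. Single libraries decided other calls: Ndufa3 was not called without HFD3, Ndufa12 without HFD3 or LYC3, Ndufa7 without HFD1 or LYC3, Ndufa5 without HFD2, HFD3, LYC1 or LYC3, and Ndufv2 was called with LYC3 left out but with no other library left out. In the refits that lost these calls, the log2 fold changes ranged from 0.90 (Ndufv2) to 1.37 (Ndufa12).

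**Figure D5:**
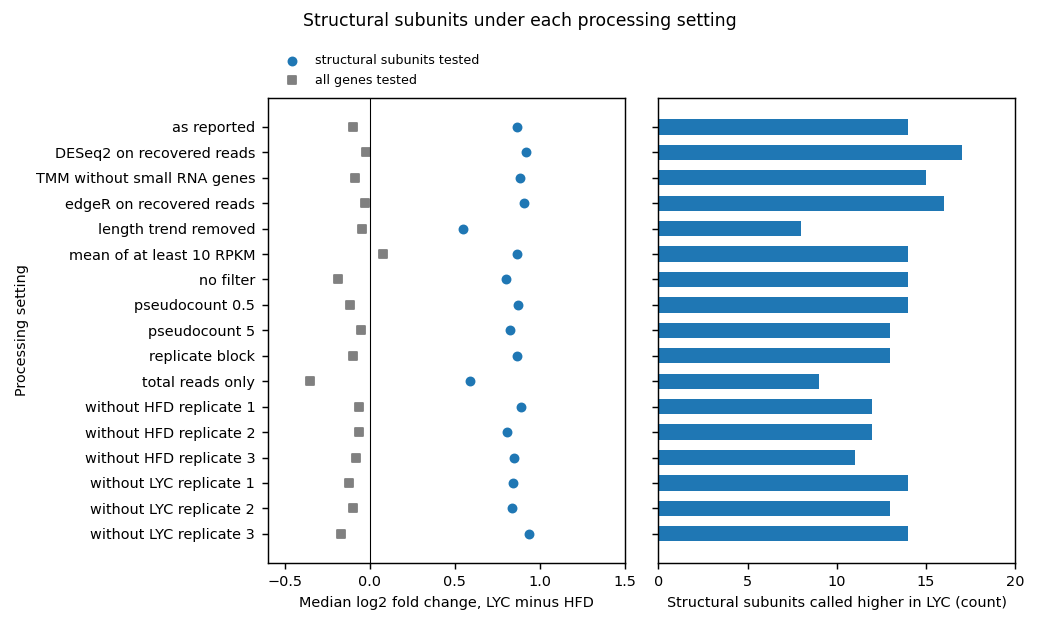
Median log2 fold change of the tested structural subunits (blue circles) and of all genes tested (grey squares), and the number of structural subunits called higher in LYC, under each processing setting. The blue median stays between 0.55 and 0.94 while the count at the unadjusted p below 0.01 ranges from 8 with the length trend removed to 17 with DESeq2.

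The counts of the libraries labelled mRNA, tested by edgeR's quasi-likelihood method, are given as a second count of closely related reads and add no independent support. They called 16 of 37 tested structural subunits and Ndufaf1 higher and 0 lower, against 9.31% and 7.33% of 5921 genes, with a median of 0.91 for the structural subunits. Scaled by total counts alone, the same table called 1 Nduf gene higher and 7 lower, against 2.26% and 46.6% of all genes, and the structural median was -0.17, beside -1.11 for all genes.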

How the data were processed

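Liver ribosome footprints of 3 HFD and 3 LYC Ribo-seq libraries, and 3 libraries per group labelled mRNA, were analysed. Per the study's methods, footprints were prepared with cycloheximide and RNase I, and depleted of ribosomal RNA. The methods name cutadapt and Bowtie2 for cleaning the reads, STAR for alignment to GRCm38 (mm10) and FANSE2 for quantification, while the series text names a RefSeq RNA reference. Which reference gave the RPKM values, how reads fitting several genes were placed, and the versions are not given in the sources used here. The authors deposited RPKM values for the Ribo-seq libraries (reads per 1000000 reads divided by gene length in kilobases) and raw read counts for the libraries labelled mRNA. The deposited Ribo-seq RPKM values stepped in whole reads: with gene lengths from the second table (11129 genes) or fitted (4620 genes), every value above 0 was a whole number of reads within 0.02, which gave each library's depth. The count test on these reads is edgeR's alternative, which called 8.64% of genes higher and 7.2% lower.

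Genes that passed edgeR's filterByExpr (version 4.0.16) on the recovered reads were tested. RPKM was divided by TMM factors, set as log2(RPKM + 1), and fitted with limma 3.58.1 (with a mean-variance trend) over the 6 libraries. A call needed a log2 fold change beyond 1 and an unadjusted p below 0.01. Adjusted p-values are Benjamini-Hochberg values over all 5695 tested genes. The added 1 understates the change of low genes, while the TMM factors, higher in every HFD library, move all fold changes upwards. edgeR's quasi-likelihood test was used for the counts labelled mRNA. The fits were tested on simulated data.

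Of 25033 gene entries, 4 that shared a name were left out. The named members are the called ones, the 7 core subunits, each assembly factor, Ndufa4 and Ndufb4 with their copies, and the 3 highest and 3 lowest tested. The values of 1 member are not reported here, though it is in the counts and medians. The members, lists and tests were chosen with earlier results of these data known. Coordinates are GRCm38, and sequences are from RefSeq. Alternatives were DESeq2, edgeR, other scalings, filters and pseudocounts, removal of a length trend, a replicate block, a stricter p and leaving out each library. R 4.3.3 and Python 3.11.15 were used.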

Additional observations from a re-analysis of the deposited data

How the results depend on the processing

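The count of 14 structural subunits called higher ranged from 11 to 14 with a library left out. It was 8 with the length trend removed, 9 with scaling by total reads only and 6 at an unadjusted p below 0.001. The count called lower, 0, became 1 (Ndufa6) with the length trend removed, with scaling by total reads only and without LYC2 (0 to 1 with a library left out). The structural median of 0.87 was 0.55 with the length trend removed and 0.59 with total reads only (0.81 to 0.94 with a library left out). The single assembly factor called became 0 with the length trend removed, a pseudocount of 5, total reads only and the stricter p, and ranged from 0 to 1 with a library left out. The assembly factor median of 1.14 (1 gene) was 0.72 without the filter (8 genes), 0.91 with a pseudocount of 5 and 0.87 with total reads only, and ranged from 0.29 to 1.22 with a library left out, where the number of genes passing the filter varied.

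For the other complex I genes, the count of 1 called higher became 0 with a pseudocount of 5, total reads only and the stricter p (0 to 2 with a library left out). In complexes II to V, 11 called higher became 4 with the length trend removed and 7 with total reads only, and the median of 0.71 became 0.22 and 0.43 (0.57 to 0.71 with a library left out). Their count of 1 called lower was 2 with DESeq2 and with edgeR, 3 with the length trend removed and with total reads only, 0 at the stricter p, and 0 to 2 with a library left out.

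In the libraries labelled mRNA, 17 Nduf genes called higher became 9 with the length trend removed and 1 with total counts only (11 to 20 with a library left out). The 0 called lower became 1 with the length trend removed and without a filter, and 7 with total counts only (0 to 1 with a library left out). The structural median of 0.91 (0.87 to 1.06 with a library left out) became 0.51 with the length trend removed and reversed to -0.17 with total counts only, which moved the median of all genes to -1.11. The assembly factor median of 1.31 became 1.02 with the length trend removed, 0.87 without a filter and 0.23 with total counts only.

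Same-numbered libraries of the groups deviated together with r of 0.105, 0.027 and -0.0019, so the numbers share only a name. With the replicate block, 13 structural subunits were called higher and 1 lower (Ndufa6), and in complexes II to V 2 were called lower. In the libraries labelled mRNA, 14 Nduf genes were called higher under the block.

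Members near 0 could change sign. With a library left out, Ndufb11 ranged from -0.52 to 0.070 (above 0 without LYC1). Ndufs7 was -0.38 with the length trend removed, -0.28 with total reads only and between -0.26 and 0.24 with a library left out. The cause of these changes was not tested. Depth limits the members most in LYC, where 7 of the 8 assembly factors had at most 13 reads in any library. Intervals cover counting error only, since PCR copies could not be removed.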
